A study of Mus musculus with 10 samples.

Results

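The genes of oxidative phosphorylation described here are 89 of the 19938 genes with a symbol of their own on microarrays of regulatory T cells (Tregs) sorted from mouse spleen. They were chosen by symbol and not by any measured value: genes whose names begin with Nduf (followed by a, b, c, s or v), Uqcr, Atp5 or a Cox number from Cox4 to Cox8, together with Sdha, Sdhb, Sdhc and Sdhd. Each gene is represented by its brightest probe set. In all 114 probe sets matched, 17 of the 89 genes had more than 1, and 3 further rows that carried several symbols were left out. The names cover 73 structural subunits, of which 34 belong to complex I, 4 to complex II, 8 to complex III, 10 to complex IV and 17 to complex V. The pattern also took in 7 assembly factors of complex I (Ndufaf1 to Ndufaf7), 8 isoforms typical of other tissues, and Cox7a2l, a protein that joins complexes III and IV, and none of these 16 is a structural subunit of the common enzyme.

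All groups were CD4+ splenic Tregs of female C57BL/6 mice of 9 to 14 weeks, sorted by a red fluorescent protein that reports Foxp3, the transcription factor of this lineage. FR3 Klrg1+ cells were CD62Llo CD69+ Klrg1+ (1 array), FR3 Klrg1- cells CD62Llo CD69+ Klrg1- (4 arrays), FR2 cells CD62Llo CD69- Klrg1- (2 arrays) and FR1 cells CD62Lhi CD69- Klrg1- (2 arrays). CD62L is a homing receptor of naive-like lymphocytes, CD69 an early activation marker, and Klrg1 a receptor of terminally differentiated lymphocytes. The remaining array of the 10 carried a title and marker text that contradict each other, so it was placed in no group. Arrays of a group are labelled biological replicates, and the labels do not say whether animals were pooled for a sort.

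Oxidative phosphorylation is the process by which mitochondria make most of the ATP of a resting cell. Complex I takes electrons from NADH and complex II takes them from succinate. Complex III passes them on to cytochrome c, and complex IV hands them to oxygen. Complexes I, III and IV pump protons across the inner membrane, and complex V, the ATP synthase, uses the proton gradient to make ATP. Most subunits are encoded in the nucleus, translated in the cytosol and imported, while a few core subunits come from the mitochondrial genome. Tregs are known to draw on respiration, and in mice a Treg-specific loss of complex III impairs their suppressive function.

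Values are RMA log2 intensities, where a difference of 1 is a doubling, and a level is never set against that of another gene, since probes differ in brightness. By correlation the arrays formed 2 sets. The first held FR3 Klrg1- replicates 1 and 2, FR2 and FR1, and the second held FR3 Klrg1+, FR3 Klrg1- replicates 3 and 4 and the ungrouped array. Arrays correlated at 0.972 to 0.992 within a set and at 0.901 to 0.921 between sets. The comparisons were therefore made within a set, by a fit over the 9 grouped arrays with the set as a term (limma, Benjamini-Hochberg over all genes, threshold 0.05). The mean level of 8 T cell and Treg markers ranged from 11.28 to 11.67 over the arrays. That of 6 NK cell markers ranged from 4.66 to 5.48 and that of 9 macrophage and monocyte markers from 5.32 to 5.92, and these ranges, being of different probes, do not measure purity. Precision is limited by how few arrays there were. The transcript of Cd69, a sort marker, did not follow the sort: it stood at 12.02 and 12.16 in FR3 Klrg1- and at 11.86 and 12.17 in FR2 and 12.11 and 12.41 in FR1, FR2 and FR1 both being sorted as negative for the protein, and it passed in no comparison. In sorted bulk RNA, fewer cells that make a transcript and less transcript per cell cannot be told apart.

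Several oxidative phosphorylation transcripts were lower in FR2 cells than in FR1 cells. Of the 89 genes 11 fell in FR2 and 0 rose, against 2.3% of all 19938 genes called lower and 1.96% called higher. The 11 were spread over all 5 complexes: 4 of complex V, 3 of complex I, 1 each of complexes II, III and IV, and Cox7a2l. The difference was below 0 for 76 of the 89 genes, whether or not they passed, and its median was -0.29, against 0.02 over all genes and -0.07 over the 3555 other genes within the brightness range of the middle 50 percent of the members. The median level of the 89 genes was 8.95 and 8.98 on the FR3 Klrg1- arrays of the first set, 8.65 and 8.79 on the FR2 arrays, and 9.11 and 9.05 on the FR1 arrays. Both FR2 arrays thus lay below the other 4 arrays of the set. Of the 8 T cell and Treg markers, Il2ra fell by 0.73 and Ikzf2 rose by 0.51 in FR2 relative to FR1. Of the B cell, NK cell, macrophage and monocyte, CD8 T cell, erythroid and neutrophil markers 0 were called in this comparison.

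**Figure D1:**
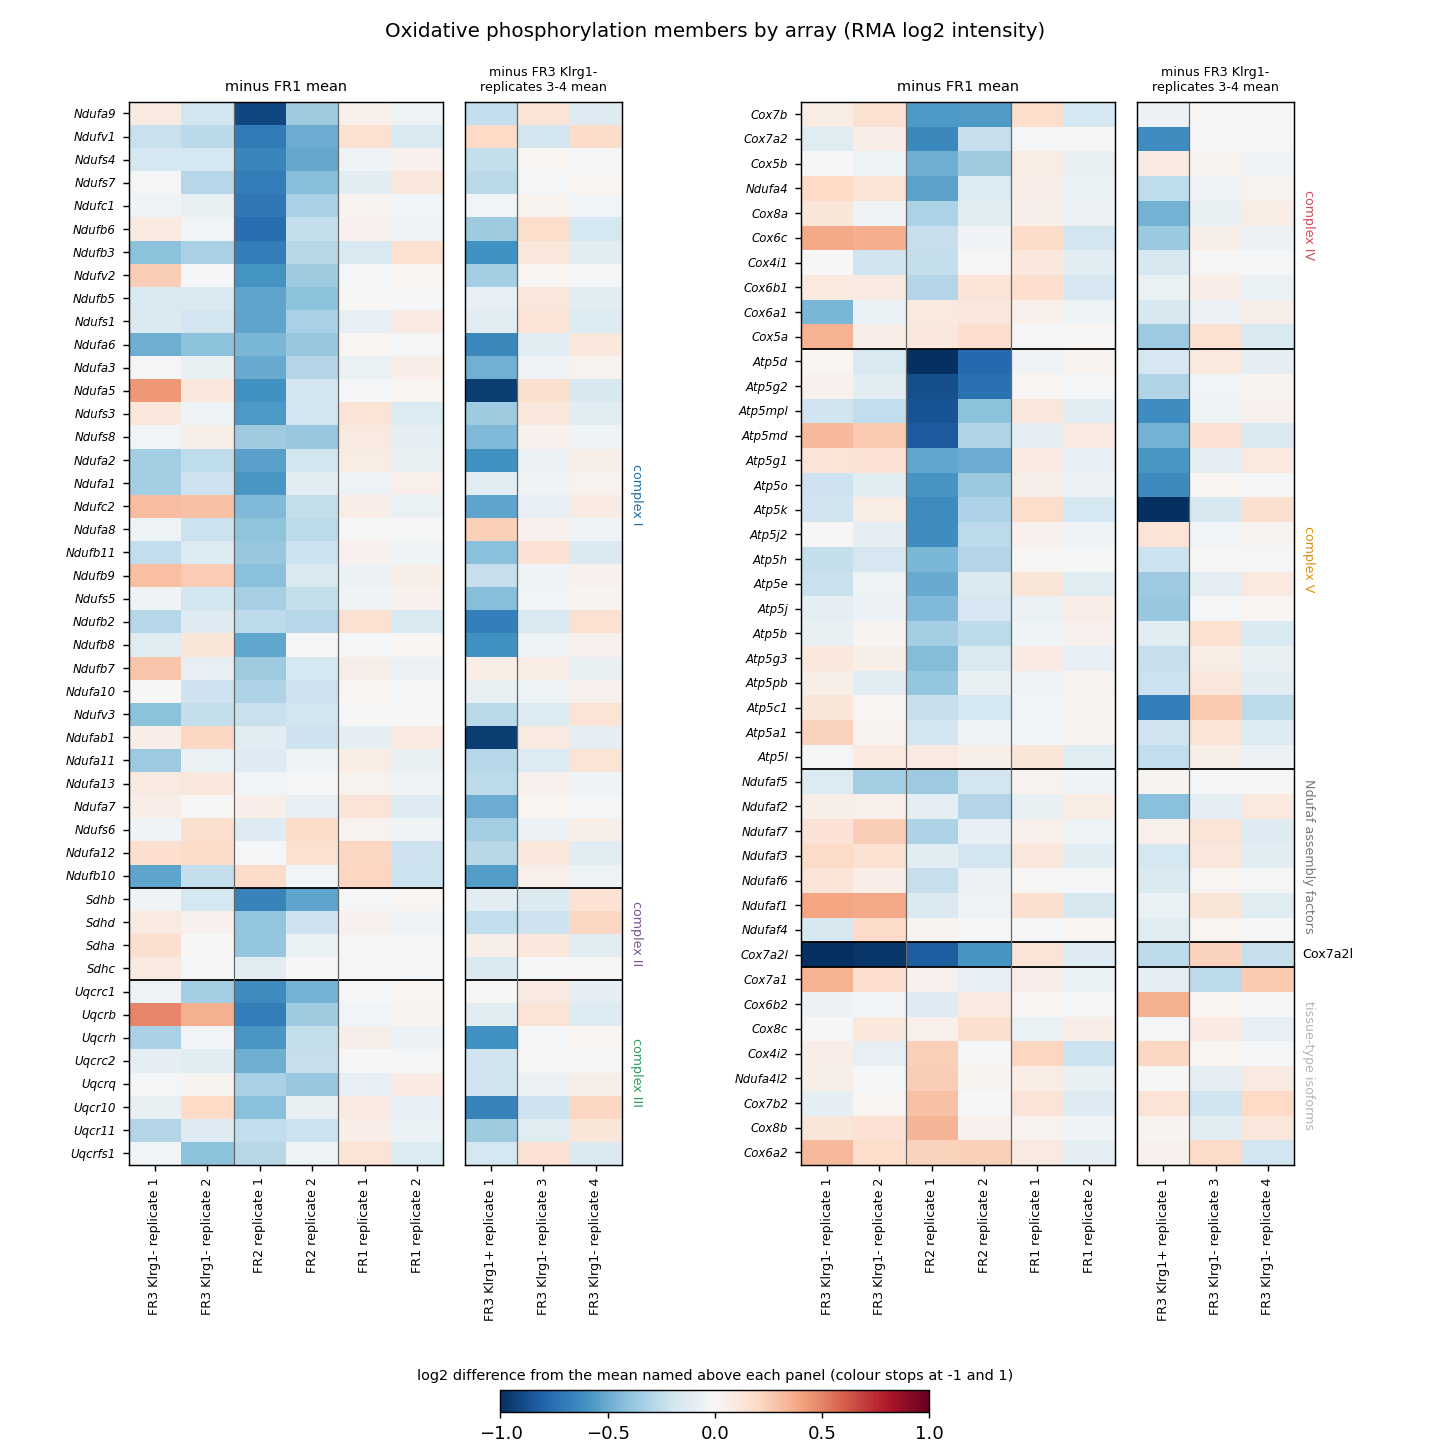
Log2 difference of each oxidative phosphorylation gene (rows, grouped by complex and sorted by the FR2 minus FR1 difference) on each array (columns), relative to the FR1 mean in the first array set and to the mean of FR3 Klrg1- replicates 3 and 4 in the second. Blue is lower and red is higher. The FR2 columns are blue for most rows of complexes I to V, more deeply on replicate 1.

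FR3 Klrg1- cells set against FR2 cells showed the opposite direction. In FR3 Klrg1- cells 10 of the 89 genes rose and 0 fell relative to FR2, against 2.81% of all genes called higher and 1.94% called lower. Of the 10, 4 belong to complex I, 4 to complex V and 1 each to complexes III and IV. The difference was above 0 for 75 of the 89 genes, with a median of 0.26, against -0.00 over all genes and 0.05 over the other genes of like brightness. Both comparisons rest on the same FR2 arrays, so a low FR2 value enters each of them, and their results are not independent. NK cell markers averaged 5.07 and 4.94 in FR3 Klrg1- and 4.66 and 4.81 in FR2, and 1 of the 6, Klrb1c, rose by 1.09. T cell and Treg markers averaged 11.62 and 11.67 in FR3 Klrg1- and 11.36 and 11.36 in FR2, with 7 of the 8 above 0, a median difference of 0.28, and Ctla4 rising by 0.52. The part of these markers in the oxidative phosphorylation values was not tested.

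FR3 Klrg1- and FR1 cells, by contrast, were close in these genes. Only Cox7a2l and Ndufa6 fell in FR3 Klrg1- relative to FR1 and 0 rose, a share of 2.25% of the 89 genes, while 3.79% of all genes were called lower and 4.39% higher in this comparison. The median difference was -0.02, with 43 genes above 0 and 46 below. Markers differed in this comparison as well: of the 8 T cell and Treg markers 4 rose and 1 fell. Klrb1c of NK cells rose by 1.15 and Cd22 of B cells by 0.94, while Cd79a of B cells fell by 0.68 and Cd8b1 of CD8 T cells by 0.55. The part of these markers in the values of the 89 genes was not tested. A contrast of FR2 with the mean of FR1 and FR3 Klrg1- called 12 of the 89 lower and 0 higher, against 1.6% and 1.07% of all genes. The FR2 mean lay below both other means for 70 of the 89 genes (78.7%), against 29.0% of all genes. For 49 of the 89 (55.1%) both FR2 arrays lay below all 4 other arrays of the set, as they did for 10.8% of all genes.

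These counts depend on single arrays of all 3 groups. For FR2 relative to FR1, 2 genes were called without FR1 replicate 1, 3 without FR1 replicate 2 and 2 without FR2 replicate 1, and for FR3 Klrg1- relative to FR2, 1 was called without FR3 Klrg1- replicate 1 and 5 without its replicate 2. Relative to the mean of both others, FR2 had 4 to 5 genes called without FR3 Klrg1- replicate 1 or either FR1 replicate. Without FR2 replicate 1, 2 genes were called lower in FR2 relative to FR1 (Atp5d and Atp5g2, both of complex V), 2 higher in FR3 Klrg1- relative to FR2 (Atp5g2 and Uqcrb), and 0 lower in FR2 relative to the mean of both others (15 of 89 had an unadjusted p under 0.05). The medians over the 89 genes then were -0.19, 0.16 and -0.18, in the same directions as before. Without the array set as a term, limma called 0 of the 89 genes in each of these comparisons, with 8, 31 and 16 genes at an unadjusted p under 0.05.

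**Figure D2:**
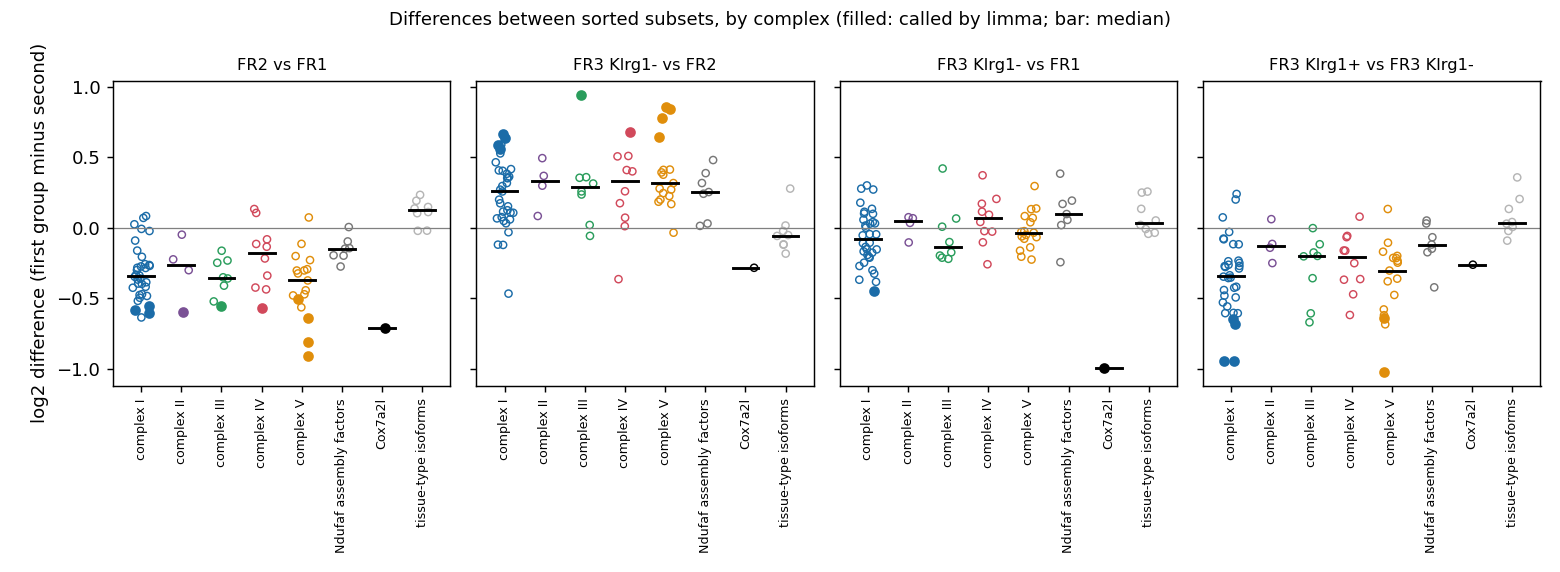
Log2 difference between sorted subsets (first group minus second) for each gene, by complex, in 4 comparisons. Filled points passed limma at an adjusted p under 0.05, and bars are medians. Nearly all points of complexes I to V lie below 0 for FR2 vs FR1 and above 0 for FR3 Klrg1- vs FR2, the points for FR3 Klrg1- vs FR1 scatter around 0 apart from Cox7a2l, and most points for FR3 Klrg1+ vs FR3 Klrg1- lie below 0.

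Complex V, the ATP synthase, had the most genes that fell in FR2 relative to FR1, 4 of its 17, with a median of -0.37 and 16 of 17 genes below 0. Atp5d encodes the delta subunit of the central stalk that turns inside the catalytic head. Its level was 11.12 and 10.94 in FR3 Klrg1-, 10.05 and 10.32 in FR2, and 11.06 and 11.13 in FR1. Both FR2 arrays lay well below the other 4, which overlapped. The FR2 minus FR1 difference was -0.91 ± 0.14 (SE, adjusted p = 0.0014), an intensity 0.532 times that in FR1, and the FR3 Klrg1- minus FR2 difference was 0.84 ± 0.14 (adjusted p = 0.0024).

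Atp5g1 and Atp5g2 encode the same mature subunit c, which forms the rotating membrane ring. Atp5g2 stood at 11.23 and 11.08 in FR3 Klrg1-, 10.32 and 10.45 in FR2, and 11.21 and 11.17 in FR1. It fell by 0.81 ± 0.13 in FR2 relative to FR1 (adjusted p = 0.0017) and rose by 0.78 ± 0.13 in FR3 Klrg1- relative to FR2 (adjusted p = 0.0022). Its other 2 probe sets, in a fit over every probe set, differed by -0.83 and -0.62 in the first comparison (adjusted p = 0.0020 and 0.018), so all 3 probe sets fell. Atp5g1 was at 8.94 and 8.96 in FR3 Klrg1-, 8.29 and 8.32 in FR2, and 8.89 and 8.73 in FR1, again with FR2 apart from the rest. Its differences were -0.51 ± 0.13 for FR2 relative to FR1 (adjusted p = 0.041) and 0.64 ± 0.13 for FR3 Klrg1- relative to FR2 (adjusted p = 0.0098). In the fit over every probe set, the other probe set of Atp5g1 differed by -0.45 and 0.57 (adjusted p = 0.057 and 0.017). It thus missed the threshold for FR2 relative to FR1. Atp5g3, the remaining gene for subunit c, differed by -0.29 and 0.38 in these comparisons and passed in neither.

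Among the small membrane subunits of the ATP synthase, Atp5mpl (a short proteolipid) stood at 9.86 and 10.32 in FR2 against 10.84 and 10.61 in FR1, and fell by 0.64 ± 0.16 (adjusted p = 0.030). Atp5md, also known as DAPIT, a factor that helps the enzyme form dimers, stood at 10.42 and 10.36 in FR3 Klrg1- and at 9.27 and 9.80 in FR2. It rose by 0.86 ± 0.17 in FR3 Klrg1- relative to FR2 (adjusted p = 0.0078), and FR1 lay between them at 10.01 and 10.18. The catalytic genes Atp5a1 and Atp5b, for the alpha and beta subunits that bind nucleotide, differed by -0.11 and -0.30 between FR2 and FR1 and did not pass. Atp5l, for the membrane subunit g, was the single complex V gene with a positive difference between FR2 and FR1 (0.07), and it did not pass. That value is of the brightest of its 6 probe sets. The rest all lay below 0, from -0.03 to -0.14, and did not pass either.

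The genes Atp5d, Atp5g2, Atp5g1 and Cox7b each passed both for FR2 against FR1 and for FR3 Klrg1- against FR2, while Cox7a2l did not share their course, and the 250 bases before the annotated start of each are shown to let their promoters be compared. The sequences are those of RefSeq on GRCm38.p6, each 5′ to 3′ on the strand of its gene. They lie at chr10:80142065-80142314 for Atp5d on the plus strand (the downstream of its 2 annotated starts), chr15:102671048-102671297 for Atp5g2 on the minus strand, chr11:96075632-96075881 for Atp5g1 on the minus strand, chrX:106015450-106015699 for Cox7b on the plus strand, and chr17:83514334-83514583 for Cox7a2l on the minus strand. Capitals mark matches, on either strand, to the 7 motifs described further on: the NRF-1 letters GCGCATGCG in Atp5g2, CCAAT in Atp5g1 and Cox7b, and the Sp1 letters GGGCGG in Cox7a2l.
Atp5d: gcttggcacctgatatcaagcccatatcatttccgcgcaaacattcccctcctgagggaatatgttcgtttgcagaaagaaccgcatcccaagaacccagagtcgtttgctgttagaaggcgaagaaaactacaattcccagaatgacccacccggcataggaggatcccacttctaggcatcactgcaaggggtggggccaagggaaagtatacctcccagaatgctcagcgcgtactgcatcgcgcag
Atp5g2: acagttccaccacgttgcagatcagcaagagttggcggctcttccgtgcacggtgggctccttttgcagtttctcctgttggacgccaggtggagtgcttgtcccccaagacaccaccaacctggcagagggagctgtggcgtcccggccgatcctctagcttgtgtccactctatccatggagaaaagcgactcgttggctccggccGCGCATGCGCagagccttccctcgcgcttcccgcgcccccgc
Atp5g1: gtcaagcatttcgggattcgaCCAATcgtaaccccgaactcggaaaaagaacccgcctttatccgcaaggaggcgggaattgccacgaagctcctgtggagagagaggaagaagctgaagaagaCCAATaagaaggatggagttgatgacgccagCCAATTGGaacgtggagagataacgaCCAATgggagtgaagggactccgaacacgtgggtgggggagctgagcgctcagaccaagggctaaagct
Cox7b: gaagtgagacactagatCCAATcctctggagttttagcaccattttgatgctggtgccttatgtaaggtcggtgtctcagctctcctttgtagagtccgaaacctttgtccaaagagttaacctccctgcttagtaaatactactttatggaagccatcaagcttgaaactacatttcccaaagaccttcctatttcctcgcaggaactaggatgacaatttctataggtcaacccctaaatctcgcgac
Cox7a2l: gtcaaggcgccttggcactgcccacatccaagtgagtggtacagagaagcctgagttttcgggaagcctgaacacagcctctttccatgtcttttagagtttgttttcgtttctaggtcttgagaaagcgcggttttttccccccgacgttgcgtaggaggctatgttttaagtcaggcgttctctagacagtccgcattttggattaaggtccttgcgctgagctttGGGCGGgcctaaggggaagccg

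The 4 promoters with the lower FR2 level had no motif in common among the 7 searched. Atp5d held 0 of the 7 in this window. Atp5g1 held 5 matches to CCAAT, of which the pair at 92 and 95 bases before the start overlaps on opposite strands. The NRF-1 match of Atp5g2, about 42 bases before the start, reads the same on both strands and was counted as 2 overlapping matches of 1 site.

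Complex I, which oxidises NADH, had 3 of 34 genes that fell in FR2 relative to FR1, 31 of 34 below 0 and a median of -0.34. Ndufv1 encodes the core subunit that binds NADH and the flavin cofactor. It stood at 8.10 and 8.30 in FR2 and at 8.95 and 8.65 in FR1, a difference of -0.60 ± 0.15 (adjusted p = 0.040). Ndufs7, for a core iron-sulfur subunit beside the quinone site, was at 8.69 and 8.96 in FR2 and at 9.27 and 9.49 in FR1, a difference of -0.56 ± 0.15 (adjusted p = 0.044). Ndufs4 encodes an accessory subunit of the NADH-oxidising arm, and its loss causes a mitochondrial disease resembling Leigh syndrome in mice. It was at 8.71 and 8.86 in FR2 and at 9.33 and 9.41 in FR1, a difference of -0.58 ± 0.13 (adjusted p = 0.015). For all 3 genes the arrays of the groups did not overlap, which adds no support, since the genes were named for passing the threshold. Ndufa9 had the most negative difference of complex I, -0.64 ± 0.18, and missed the threshold (adjusted p = 0.057), with 8.15 on FR2 replicate 1 and 8.70 on replicate 2 against 9.11 and 9.01 in FR1.

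Other complex I genes passed when FR3 Klrg1- was set against FR2: Ndufa5, Ndufc2, Ndufv2 and Ndufb9 rose by 0.67 ± 0.17, 0.64 ± 0.13, 0.59 ± 0.14 and 0.56 ± 0.13, with adjusted p between 0.011 and 0.035. Ndufc2, an accessory subunit of the membrane arm, was at 10.19 and 10.17 in FR3 Klrg1-, 9.44 and 9.64 in FR2, and 9.95 and 9.81 in FR1. The core iron-sulfur subunit gene Ndufv2, which sits beside Ndufv1 in the enzyme, was at 9.59 and 9.33 in FR3 Klrg1-, 8.75 and 8.99 in FR2, and 9.33 and 9.37 in FR1. In both genes FR2 was lowest. FR3 Klrg1- lay above FR1 in Ndufc2 and overlapped it in Ndufv2. For 4 of the 34 genes the FR3 Klrg1- minus FR2 difference was below 0, and none of these passed. The most negative was that of Ndufb10, an accessory subunit, with means of 7.64 in FR3 Klrg1-, 8.10 in FR2 and 8.02 in FR1 (n = 2 each), a difference of -0.47 ± 0.16 (adjusted p = 0.14). Ndufa6, an accessory subunit, was at 8.26 and 8.34 in FR3 Klrg1-, 8.30 and 8.37 in FR2, and 8.77 and 8.73 in FR1. Only its fall in FR3 Klrg1- relative to FR1 passed (-0.45 ± 0.13, adjusted p = 0.045), while the near-equal FR2 difference of -0.42 did not (adjusted p = 0.089).

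Complex II, succinate dehydrogenase, which is also an enzyme of the citric acid cycle, had 1 of 4 genes that fell in FR2 relative to FR1. This was Sdhb, the iron-sulfur subunit, at 8.70 and 8.84 in FR2 and at 9.35 and 9.39 in FR1 (-0.60 ± 0.14, adjusted p = 0.022). FR3 Klrg1- stood at 9.33 and 9.20, and its difference of 0.49 from FR2 did not pass. The flavoprotein Sdha and the membrane anchors Sdhc and Sdhd differed by -0.22, -0.05 and -0.30 between FR2 and FR1, and did not pass.

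All 8 genes of complex III, the cytochrome bc1 complex, were lower in FR2 than in FR1 by their means, with a median of -0.35, and Uqcrc1 alone passed. Uqcrc1 encodes a large core subunit on the matrix side, and it stood at 9.23 and 9.39 in FR2 and at 9.84 and 9.88 in FR1 (-0.55 ± 0.14, adjusted p = 0.038). The small subunit gene Uqcrb, whose product lies near the quinone site, was at 9.92 and 9.78 in FR3 Klrg1-, 8.74 and 9.08 in FR2, and 9.40 and 9.46 in FR1. The 3 groups did not overlap, with FR3 Klrg1- highest and FR2 lowest. Uqcrb rose by 0.94 ± 0.15 in FR3 Klrg1- relative to FR2 (adjusted p = 0.0015), and its other 2 probe sets rose by 0.86 and 0.90 (adjusted p = 0.0036 and 0.0030). Uqcrfs1, the Rieske iron-sulfur subunit, differed by -0.16 between FR2 and FR1 and by -0.06 between FR3 Klrg1- and FR2, neither of which passed.

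Complex IV, cytochrome c oxidase, had the median nearest to 0 of the 5 complexes for FR2 relative to FR1, -0.18 over its 10 nuclear-encoded subunits, and 1 that fell. Cox7b, a small subunit of the membrane part, was at 9.89 and 9.96 in FR3 Klrg1-, 9.24 and 9.25 in FR2, and 9.98 and 9.64 in FR1. It fell by 0.57 ± 0.14 in FR2 relative to FR1 (adjusted p = 0.030) and rose by 0.68 ± 0.14 in FR3 Klrg1- relative to FR2 (adjusted p = 0.0097). Its other probe set differed by -0.27 and 0.31 and passed in neither comparison (adjusted p = 0.37 and 0.31), so the call rests on the brighter probe set. Ndufa4, named for complex I but found in complex IV, differed by -0.34 and 0.51 in the same comparisons and did not pass. Cox6a1 and Cox5a went the other way, at 0.11 and 0.13 for FR2 relative to FR1, and did not pass.

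Cox7a2l, also called SCAF1, tethers complex III to complex IV in a respiratory supercomplex, and mice of the C57BL/6 background are known to carry a shortened, less stable form of the protein. Its level was 10.26 and 10.30 in FR3 Klrg1-, 10.44 and 10.68 in FR2, and 11.40 and 11.14 in FR1. It fell by 0.99 ± 0.16 in FR3 Klrg1- relative to FR1 (adjusted p = 0.00078), an intensity 0.503 times that in FR1, and by 0.71 ± 0.16 in FR2 relative to FR1 (adjusted p = 0.021). FR3 Klrg1- and FR2 differed by -0.28 ± 0.16, which did not pass (adjusted p = 0.45). Both CD62Llo subsets of the first set were thus below the CD62Lhi subset. A second, dimmer probe set of the gene fell as well, by 0.53 in FR3 Klrg1- relative to FR1 (adjusted p = 0.015) and by 0.50 in FR2 relative to FR1 (adjusted p = 0.034). It was the only one of the 89 genes other than Ndufa6 to pass for FR3 Klrg1- relative to FR1.

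**Figure D3:**
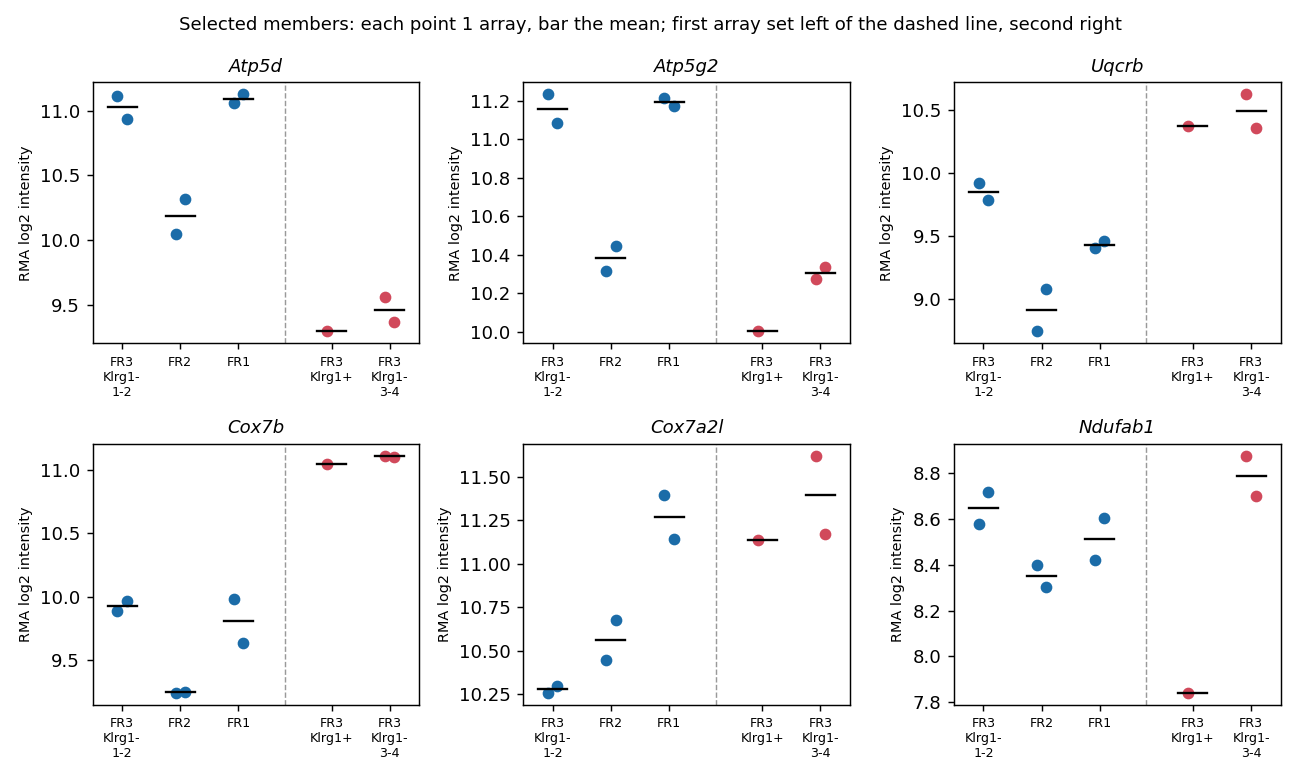
RMA log2 intensity of 6 genes, each point 1 array and each bar a group mean, with the first array set left of the dashed line and the second right of it. In Atp5d, Atp5g2, Uqcrb and Cox7b the FR2 points are the lowest of the first set, in Cox7a2l the FR1 points are the highest, and in Ndufab1 the FR3 Klrg1+ point at 7.84 lies below both FR3 Klrg1- points of its set.

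Apart from Cox7a2l, no gene outside the structural subunits passed. Of the 7 Ndufaf factors, which help to build complex I, 0 were called in any of the 5 comparisons, although 6 of 7 lay below 0 for FR2 relative to FR1 (median -0.15, structural subunits -0.34), and 7 of 7 lay above 0 for FR3 Klrg1- relative to FR2 (median 0.25, structural subunits 0.30). Ndufaf1 had the largest difference among them for FR3 Klrg1- relative to FR2, 0.48 ± 0.14, and missed the threshold (adjusted p = 0.078). The 8 isoforms of other tissues were Cox4i2, Cox6a2, Cox6b2, Cox7a1, Cox7b2, Cox8b, Cox8c and Ndufa4l2, known from muscle, lung, testis or hypoxic cells. None passed in any comparison, their median for FR2 relative to FR1 was 0.12, and their array medians stayed between 5.81 and 6.00 over the grouped arrays.

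FR3 Klrg1+ cells were compared with FR3 Klrg1- replicates 3 and 4 in the second array set, with 1 array against 2 and the lone array assumed to vary like the others. In FR3 Klrg1+ cells 6 of the 89 genes fell and 0 rose, against 2.82% of all genes called lower and 2.14% called higher. The difference was below 0 for 75 of 89 genes, with a median of -0.25, against 0.00 over all genes and -0.07 over the other genes of like brightness. The median level of the 89 genes was 9.50 in FR3 Klrg1+, against 9.81 and 9.92 in FR3 Klrg1-. Klrg1 itself stood at 12.33 in FR3 Klrg1+ and at 7.27 and 7.47 in FR3 Klrg1-.

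Complex I, with 34 subunits against the 17 of complex V, held 4 of the 6 genes. The medians of complexes I and V were close, -0.34 and -0.30, with 31 and 16 genes below 0. Their most positive genes were Ndufa8 (0.24) and Atp5j2 (0.13). Ndufab1, the mitochondrial acyl carrier protein, serves fatty acid and lipoate synthesis as well as complex I. It stood at 7.84 in FR3 Klrg1+ and at 8.88 and 8.70 in FR3 Klrg1-, a difference of -0.95 ± 0.16 (adjusted p = 0.0048), and its other probe set fell by 0.89 (adjusted p = 0.0055). Ndufa5, an accessory subunit, was at 9.58 in FR3 Klrg1+ and at 10.69 and 10.36 in FR3 Klrg1- (-0.95 ± 0.21, adjusted p = 0.017). The accessory subunits Ndufb2 and Ndufa6 fell by 0.68 ± 0.18 and 0.64 ± 0.16 (adjusted p = 0.043 and 0.032).

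The remaining 2 were of complex V. Atp5k, for the membrane subunit e that takes part in dimer formation, was at 8.93 in FR3 Klrg1+ and at 9.78 and 10.11 in FR3 Klrg1- (-1.02 ± 0.21, adjusted p = 0.012). Atp5o, the subunit that links the head of the enzyme to its outer stalk and confers sensitivity to oligomycin, was at 9.34 in FR3 Klrg1+ and at 9.99 and 9.96 in FR3 Klrg1- (-0.64 ± 0.16, adjusted p = 0.035). Complexes II, III and IV had no gene past the threshold here, although all 8 complex III genes and 9 of 10 complex IV genes lay below 0. In a fit over the arrays of the second set alone 3 of the 89 genes were called lower, and without the array set as a term 0 were called, 6 had an unadjusted p under 0.05, and the median was 0.11.

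Some markers of other cell types differed in this comparison too. NK cell markers averaged 4.98 in FR3 Klrg1+ and 5.24 and 5.48 in FR3 Klrg1-, and 2 of the 6, Tyrobp and Klrb1c, fell by 1.15 and 0.66. Macrophage and monocyte markers averaged 5.44 in FR3 Klrg1+ and 5.72 and 5.92 in FR3 Klrg1-, with 7 of the 9 below 0 and a median difference of -0.53. Among the 9, C1qc was lower by 0.81 and Fcgr1 higher by 0.68. Their part in the lower oxidative phosphorylation values was not tested. T cell and Treg markers averaged 11.35 in FR3 Klrg1+ and 11.32 and 11.28 in FR3 Klrg1-.

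Arrays of the same sort differed between the sets by more than the sorted subsets did within a set. FR3 Klrg1- was sampled in each set, and replicates 3 and 4 minus replicates 1 and 2 gave a median of 0.66 over the 89 genes, against 0.02 over all genes. By complex the median was 0.97 for complex I, -0.14 for complex II, 0.50 for complex III, 1.12 for complex IV, 0.11 for complex V and 1.18 for the Ndufaf factors. All 10 complex IV genes and 29 of 34 complex I genes were higher in the second set, while Atp5d and Atp5a1 were lower by 1.57 and 1.53 and Ndufaf2 was higher by 3.24. FR1 and FR2 have arrays in the first set only and FR3 Klrg1+ in the second only, so no level is compared across the sets. The labels do not say what separates them.

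**Figure D4:**
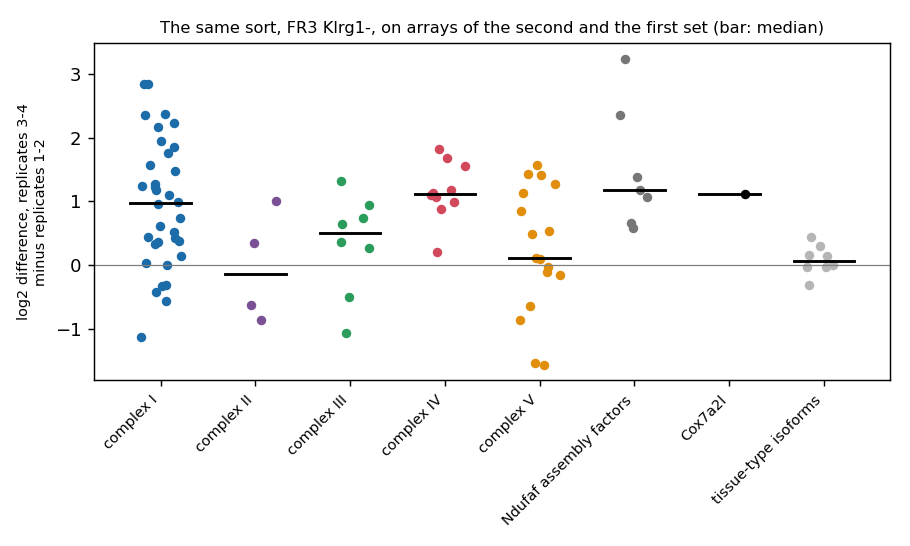
Log2 difference of each oxidative phosphorylation gene between arrays of the same sort, FR3 Klrg1- replicates 3 and 4 minus replicates 1 and 2, by complex, with bars at the medians. Points spread from -1.57 to 3.24, wider than in any comparison of sorted subsets, and complex I, complex IV and the Ndufaf factors lie mostly above 0.

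Lists of the pathway's partners were described in the same way, with no test between lists. Beside their counts, 2.3% of all genes were called lower in FR2 relative to FR1. In FR3 Klrg1- relative to FR2, 2.81% of all genes were called higher. Of 77 mitochondrial ribosomal proteins, which translate the mitochondrial genome's own subunits, 9 fell and 0 rose in FR2 relative to FR1 (median -0.25), and 6 rose and 0 fell in FR3 Klrg1- relative to FR2 (median 0.20). Mrpl23 and Mrps33 fell by 1.03 ± 0.16 and 0.77 ± 0.14 in FR2 relative to FR1. Of 18 genes of the citric acid cycle and pyruvate dehydrogenase, Idh3g and Pdhx fell in FR2 relative to FR1 (median -0.25), and Fh1 and Idh3g rose in FR3 Klrg1- relative to FR2 (median 0.21). Of 29 genes of protein import and cristae, 3 fell in FR2 relative to FR1, namely Timm21 (-0.65), Chchd3 (-0.57) and Hspe1 (-0.57), and 4 rose in FR3 Klrg1- relative to FR2, among them Hspe1 (0.69).

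Electron carriers and genes of coenzyme Q synthesis, which link the complexes, had 0 of 17 called in FR2 relative to FR1 and 3 that rose in FR3 Klrg1- relative to FR2. Cycs, cytochrome c itself, was at 9.57 and 9.36 in FR3 Klrg1-, 8.67 and 9.03 in FR2, and 9.38 and 9.40 in FR1, and rose by 0.61 ± 0.15 in FR3 Klrg1- relative to FR2 (adjusted p = 0.025). Etfb, a carrier of electrons from fatty acid oxidation, rose by 0.82 ± 0.14, and Coq8a, which supports coenzyme Q synthesis, rose by 0.85 ± 0.13. The last 2 rose also relative to FR1, by 0.51 and 0.91. Of the other 39 assembly factors, 3 fell in FR2 relative to FR1: Uqcc3 of complex III (-0.64), Atpaf2 of complex V (-0.60) and Ecsit of complex I (-0.49).

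Of 18 regulators of mitochondrial biogenesis 0 were called in FR2 relative to FR1, and for FR3 Klrg1- relative to FR2 10 lay above 0 and 8 below, with 1 called lower. Polg2, the accessory subunit of the mitochondrial DNA polymerase, stood at 8.29 and 8.27 in FR3 Klrg1-, 9.07 and 9.21 in FR2, and 8.67 and 8.91 in FR1, and fell by 0.86 ± 0.14 in FR3 Klrg1- relative to FR2 (adjusted p = 0.0021). In FR3 Klrg1+ relative to FR3 Klrg1-, the median was -0.25 over the 77 mitochondrial ribosomal proteins, with 20 above 0. It was -0.28 over the 29 import and cristae genes (7 above 0) and -0.20 over the 61 cytosolic ribosomal proteins (11 above 0). The median over the 89 genes was -0.25. Electron carriers and coenzyme Q genes had a median of -0.04, with 7 of 17 above 0 and Pdss2 higher by 0.73. The other assembly factors had a median of -0.11, with 13 of 39 above 0, Tmem126b lower by 0.76 and Foxred1 higher by 0.64. Over the 18 genes of the citric acid cycle and pyruvate dehydrogenase the median was -0.15, with 4 above 0. The coactivator Ppargc1b fell by 0.85 and the mitochondrial helicase Twnk by 0.70 in FR3 Klrg1+ in the same comparison. Of 13 subunits encoded in mitochondrial DNA only ND3 of complex I and COX2 of complex IV had a probe set with 1 symbol. ND3 was at 12.41 and 12.35 in FR3 Klrg1-, 11.70 and 11.96 in FR2, and 12.15 and 12.23 in FR1, and rose by 0.55 ± 0.13 in FR3 Klrg1- relative to FR2 (adjusted p = 0.029). COX2 did not pass in any comparison. In FR3 Klrg1+ relative to FR3 Klrg1-, the differences of ND3 and COX2 lay above 0, at 0.15 and 0.33.

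Cytosolic ribosomal proteins, which share high expression and housekeeping roles with the subunits but not their organelle, were lower in FR2 as well. Of 61 such genes 9 fell (14.8%, against 2.3% of all genes) and 0 rose in FR2 relative to FR1. Their median was -0.25, close to that of the 89 genes. They also had a median of -0.21 in FR3 Klrg1- relative to FR1, where 3 fell (4.92%, against 3.79% of all genes). In FR3 Klrg1- relative to FR2 their median was 0.06, and 2 rose (3.28%, against 2.81% of all genes). Both shares are near those of all genes. No test of the difference between these lists was made. The adenine nucleotide and phosphate carriers, which bring ADP and phosphate to complex V, had a median of -0.03 in FR2 relative to FR1 and 0 of 10 called, and Vdac1, the pore of the outer membrane, fell by 0.84 in FR3 Klrg1+ relative to FR3 Klrg1-.

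**Figure D5:**
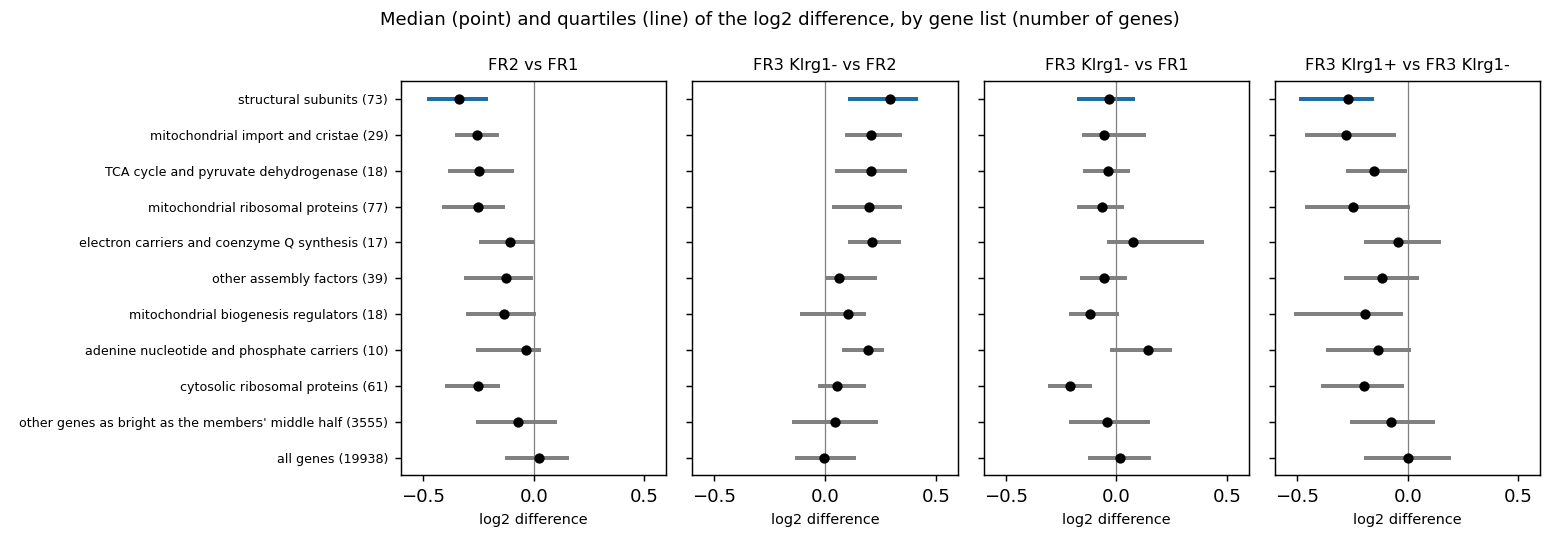
Median (point) and quartiles (line) of the log2 difference, first group minus second, for the 73 structural subunits (top) and related gene lists, with the number of genes in brackets. For FR2 vs FR1 the medians of the subunits, other mitochondrial lists and cytosolic ribosomal proteins lie left of 0. The line of the adenine nucleotide and phosphate carriers crosses 0 there. For FR3 Klrg1- vs FR1 the cytosolic ribosomal proteins alone have both quartiles left of 0.

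What the genes share in sequence was looked at in their promoters, as a description with no test. RefSeq promoters were found for 73 of the 89 genes, 78 windows of 250 bases in all, and for comparison 19116 windows of measured genes were searched for the same letters on both strands. The letters of NRF-1, a regulator known to act on many respiratory genes, were in 9.0% of the members' windows and 2.1% of all windows (GCGCATGCG). Those of the ETS family, to which the respiratory regulator GABP belongs, were in 16.7% and 9.4% (CCGGAAG), those of CRE in 5.1% and 2.0% (TGACGTCA), those of ERR-alpha in 1.3% and 0.3% (TCAAGGTCA), and the CCAAT box in 42.3% and 34.6%. Sp1 letters were in 37.2% and 45.6% (GGGCGG), and those of YY1 in 1.3% and 1.6% (AAGATGGC). The CRE, YY1 and ERR-alpha shares rest on 4, 1 and 1 of the 78 windows.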

How the data were processed

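RNA of each sort, 20 to 50 ng per the labels, was amplified before hybridisation to the arrays, of the type Affymetrix Mouse Gene ST 1.0. The deposited values are log2 intensities made by the authors with RMA, per the submitters' processing notes, with its version not given in the sources used here. Of 35556 rows 21789 had 1 gene symbol in the probe table (annotation of the platform), 1621 had several and 12146 were not listed. The brightest probe set was kept per gene (19938 genes), with no intensity filter. Differences, standard errors and adjusted p were computed with limma 3.58.1 in R 4.3.3, in 1 fit of group and array set over the 9 grouped arrays (4 residual degrees of freedom), and the fit was tested on simulated data. Array sets came from average-linkage clustering of 1 minus Pearson's r. Members were named by a rule, with some that it gives left out. It took up to 10 a direction past the threshold in each comparison, and the brightest and the most positive and negative of each complex. It also took up to 3 catalytic core genes a complex, the isoforms of other tissues, and from related lists up to 4 genes past the threshold. Uqcrh, Cox6b1, Uqcr10 and Cox7a2 come under the rule and are not described above. Atp5a1, Atp5g3, Cox5a, Ndufa4 and Ndufaf1 fall outside it and were chosen after their values were seen. Groups, members and lists were chosen with earlier results of these data known. Alternatives were a fit without the set term, arrays of 1 set, an intensity trend, a filter at percentile 40, quantile normalization, every probe set, structural subunits only, a replicate block and leaving out each array in turn. The probe table does not give probe positions, so signal from processed copies of a gene cannot be told apart.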

Additional observations from a re-analysis of the deposited data

How the results depend on the processing

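Over the alternatives no count of called genes included both directions except with an intensity trend for FR3 Klrg1- relative to FR1 (1 higher, 2 lower). In the order FR2 relative to FR1, FR3 Klrg1- relative to FR1, FR3 Klrg1- relative to FR2, FR2 relative to the mean of both others, and FR3 Klrg1+ relative to FR3 Klrg1-, 11, 2, 10, 12 and 6 of the 89 genes were called. The counts were 0 in all 5 without the array set term in limma (8, 3, 31, 16 and 6 at an unadjusted p under 0.05), where the medians for FR3 Klrg1- relative to FR1 and for FR3 Klrg1+ turned positive, at 0.33 and 0.11. They were 19, 2, 15, 21 and 3 with the arrays of 1 set, 21, 3, 19, 26 and 14 with an intensity trend, 21, 2, 19, 27 and 14 with dim genes left out, 5, 1, 10, 8 and 5 with quantile normalization, 15, 3, 19, 17 and 8 over every probe set (of 114), and 10, 1, 10, 12 and 6 over structural subunits. Leaving out each array in turn gave 2 to 19, 1 to 2, 1 to 15, 0 to 21 and 3 to 6. The lowest count of FR3 Klrg1- relative to FR2 was without FR3 Klrg1- replicate 1, while FR2 relative to FR1 gave 2, 3 and 2 without FR1 replicate 1, FR1 replicate 2 and FR2 replicate 1. With a replicate block, possible in the first set only, 23, 2, 18 and 26 were called. A check of the replicate numbers over 19938 genes gave Pearson's r of 0.18, 0.14 and 0.02 across group pairs. These are not correlations of array levels, which lay at 0.972 to 0.992 within a set. With 2 arrays a group, they cannot settle whether the numbers pair the arrays. Of 41 single-gene calls, 40 missed the threshold and 1 reversed without the set term: Ndufa5 in FR3 Klrg1+ relative to FR3 Klrg1- was then 0.14 (adjusted p = 0.96). Of the same 41, 12 missed it with quantile normalization and 32 without FR2 replicate 1. The cause of these changes was not tested. With 1 or 2 arrays a group in a set, the smallest difference called among the 89 genes was 0.45 in size.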

Other observations

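The array placed in no group, titled FR3 with the marker text of FR1, belonged to the second array set. Its Klrg1 level was 12.41, against 12.33 in FR3 Klrg1+ and 7.27 and 7.47 in FR3 Klrg1- of that set. The Klrg1 transcript was thus at the level of Klrg1+ cells, unlike the Klrg1- of its marker text. Its Cd69 level was 9.86, against 9.86 in FR3 Klrg1+ and 10.24 and 9.73 in FR3 Klrg1-. The median level of the 89 oxidative phosphorylation genes on it was 9.64, and that of the complex I subunits 9.56, of the complex IV subunits 11.15 and of the complex V subunits 10.70. Cox7a2l stood at 11.32 there.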
